A study of Mus musculus castaneus and Mus musculus domesticus and Mus musculus with 11 samples.

Results

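The genes described here are 34 mouse genes of glycolysis and of the response to low oxygen, found in the count matrix by the Ensembl gene IDs of their symbols. The list holds 16 glycolytic enzymes, 4 sugar and monocarboxylate transporters, 2 regulators of glycolytic flux, 4 regulators of the hypoxia-inducible factors (HIF) and 8 further HIF target genes. A row was found for 29 of the 34, among 27071 genes with a row, and 28 of them passed a filter on low counts, among 14839 tested genes. The enzymes Tpi1, Gapdh and Pkm and the HIF targets Bnip3 and Adm were not analysed here. Car9, a carbonic anhydrase at the cell surface, had a row and was not tested, with 3, 4 and 1 counts in the 129 libraries and 0 in the other 6.

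The libraries hold polyadenylated RNA of cultured motor neurons that were made from stem cells of 3 mouse lines, with 3 libraries each. One line is of the laboratory strain 129S6/SvEv (129 in what follows), another of the wild-derived strain CAST/EiJ (CAST), and the last a CASTx129 hybrid that the labels name 129CAS. Neither a treatment nor an engineered allele is given for any line. The comparisons set CAST against 129, the hybrid against each parental line, and the hybrid against the midparent, the log2 mean of 129 and CAST. The hybrid comparisons share the hybrid libraries, and each pairwise comparison shares a line with the other two, so they are not independent of each other.

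Glycolysis splits glucose into pyruvate in the cytosol and yields ATP without oxygen, and lactate dehydrogenase turns the pyruvate into lactate when it is not oxidised in mitochondria. The HIF alpha subunits are made all the time and, where oxygen is present, are marked for breakdown by prolyl hydroxylases of the Egln family. When oxygen falls the subunits last, enter the nucleus and raise genes for glycolysis, glucose uptake, vessel growth and collagen modification. The mRNA of an alpha subunit therefore does not by itself report the amount or the activity of the protein.

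Total counts ran from 7763077 to 18167577 per library. In 3 libraries long transcripts were relatively scarce, with a slope of relative log2 level on exon length of −0.70 per doubling in CAST 1, −0.65 in hybrid 2 and −0.19 in hybrid 3, against 0.16 to 0.34 in the other 6. The motor neuron label was checked against 7 marker genes, of which Mnx1 stood at 0.495 to 4.88 CPM (counts scaled to library size), Isl1 at 13.1 to 62.7 CPM and Chat at 5.52 to 28.4 CPM, and Lhx3 was at 0 in hybrid 1. The 7 markers summed to 359 to 1417 CPM in 129, 447 to 1360 CPM in the hybrid and 564 to 3228 CPM in CAST. The 8 fibroblast and mesenchyme markers summed to 3932 to 18840 CPM, 934 to 19720 CPM and 476 to 4419 CPM, above the motor neuron sum in every library but hybrid 3 and CAST 1. Most of the motor neuron sum was Prph in every library, at 1070 CPM in hybrid 3 and 3000 CPM in CAST 1. The blood markers Hbb-bs and Hba-a1 were at 0 in every library.

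Most glycolytic enzymes had higher estimated levels in CAST and in the hybrid than in 129, while the HIF regulators and targets had lower ones. In CAST against 129 the log2 fold change was positive for 11 of the 13 tested enzymes and for 0 of the 9 tested HIF regulators and targets. The medians were 0.73 and −0.71, beside a median of 0.06 over all tested genes, of which 52.4% were positive. In the hybrid against 129 it was positive for 9 of 13 enzymes and 1 of 9 HIF genes, with medians of 0.45 and −0.94 beside 0.02 over all tested genes. Between the hybrid and CAST the medians were −0.27 for the enzymes and 0.29 for the HIF genes, beside −0.08 over all tested genes. Most of the marker lists also had negative medians against 129. The motor neuron, neuron, endothelium and pluripotent cell lists had medians of −0.16, −0.10, −0.87 and −1.78 in CAST against 129. In the hybrid against 129 they had −0.80, −0.52, −1.095 and −0.64. Astrocyte and radial glia markers had positive medians, at 0.49 and 0.93, as had the microglia and blood and the cell cycle lists. In CAST against 129 the log2 fold change was positive for 0 of 8 fibroblast and mesenchyme, 0 of 4 muscle and 0 of 5 oligodendrocyte lineage markers tested, with medians of −2.57, −2.28 and −1.36. In the hybrid against 129 it was positive for 3 of 8, 0 of 4 and 2 of 5, with medians of −0.49, −1.91 and −1.08. The part of the cells that these lists mark in the HIF medians was not tested.

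These medians held few genes that passed the test. CAST against 129 called 0 of the 28 genes by edgeR's quasi-likelihood test with Benjamini-Hochberg adjustment at a threshold of 0.05, beside 0.917% of all tested genes (0.391% higher and 0.526% lower). At an unadjusted p under 0.05 there were 7 of the 28, beside 14.6% of all tested genes, and 11 had no overlap between CAST and 129 libraries, beside 28.6%. DESeq2 called 4 (Hk2, Pgam1, Egln1 and Egln3), beside 6.33% of all tested genes, and limma-voom 1 (Egln1), beside 1.58%. The hybrid was lower than 129 in 3 genes (Hif1a, Egln1 and Ndrg1) and higher in 0, beside 7.02% of all tested genes called, 1.60% lower and 5.41% higher. At an unadjusted p under 0.05 there were 6, beside 22.2% of all tested genes. The libraries of the hybrid and 129 did not overlap for 10 of the 28, beside 37.5% of all tested genes. The hybrid was lower than CAST in 1 gene (Pgam1) and higher in 0, beside 1.60% of all tested genes called lower and 4.41% called higher. At an unadjusted p under 0.05 there were 4, beside 15.8%. Those libraries did not overlap for 7 of the 28, beside 19.2% of all tested genes. Against the midparent the hybrid was lower in 2 genes (Hif1a and Ndrg1) and higher in 0, beside 7.34% of all tested genes called, 1.46% lower and 5.88% higher. At an unadjusted p under 0.05 there were 5, beside 18.4%.

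**Figure D1:**
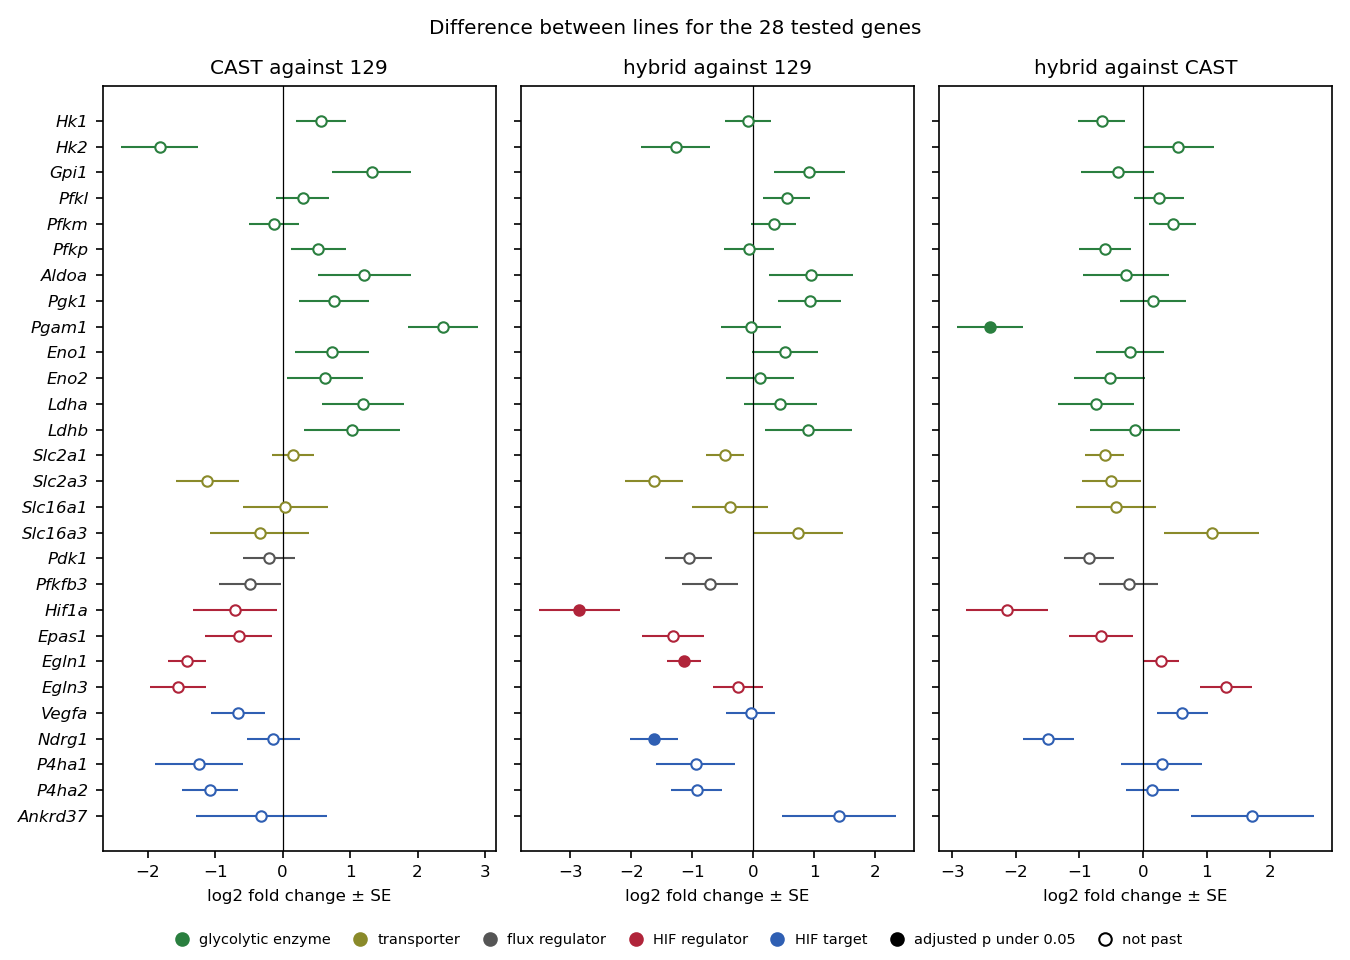
Log2 fold change ± SE (horizontal axis) of each of the 28 tested genes (rows, coloured by role) in CAST against 129, the hybrid against 129 and the hybrid against CAST, with filled points where the edgeR adjusted p is under 0.05. The enzymes lie mostly right of 0 and the HIF genes left of 0 in both comparisons with 129, and the 4 filled points are Hif1a, Egln1 and Ndrg1 in the hybrid against 129 and Pgam1 in the hybrid against CAST.

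By library, the HIF genes set the 129 line apart and the enzymes did not. The mean level of the 9 HIF genes, each relative to its own mean over the 9 libraries, was 0.78, 0.63 and 0.48 on the log2 scale in 129 1, 129 2 and 129 3. It was 0.025, −0.50 and −0.62 in hybrid 1, hybrid 2 and hybrid 3, and −0.53, −0.25 and −0.0037 in CAST 1, CAST 2 and CAST 3. Every 129 library was thus above every other library, and the hybrid and CAST libraries overlapped. The same mean over the 13 enzymes was −0.33, −0.295 and −0.115 for 129, −0.47, 0.39 and 0.05 for the hybrid, and 0.98, 0.02 and −0.235 for CAST. The higher enzyme means of the hybrid and CAST came mainly from hybrid 2 and CAST 1, and hybrid 1 was the lowest library of all.

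Hybrid 2 and CAST 1 are also the libraries with the steepest length slopes. The median main transcript was 2795 bases for the 13 enzymes and 2889 bases for the 9 HIF genes, beside 2765 bases over all tested genes. With each library's trend on main transcript length taken out, CAST 1 stood at 0.84 and hybrid 2 at 0.33 for the enzymes, and the 129 libraries stayed at 0.45 to 0.76 for the HIF genes, above the highest other library at 0.0125. Without CAST 1 the median enzyme difference of CAST against 129 was 0.06. The HIF median of CAST against 129 was −1.15 without CAST 3.

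**Figure D2:**
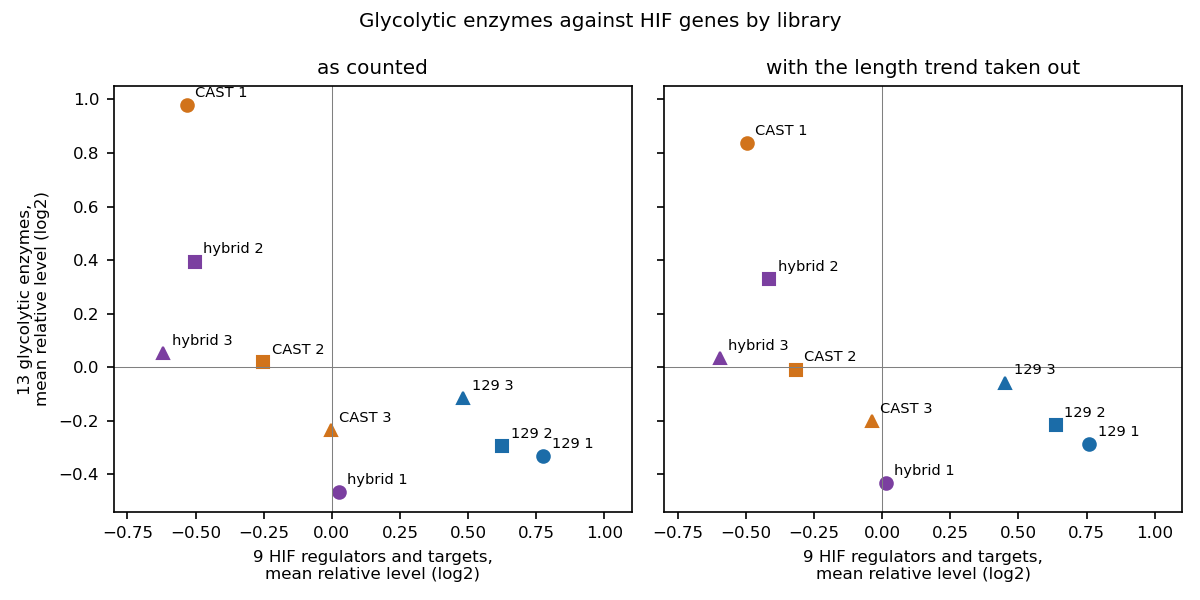
Mean relative log2 level of the 9 HIF regulators and targets (horizontal axis) against that of the 13 glycolytic enzymes (vertical axis) in each of the 9 libraries, as counted and with the per-library trend on main transcript length taken out. The 3 libraries of 129 lie to the right of all others in both panels, and CAST 1 lies highest on the enzyme axis, at 0.98 and 0.84.

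Levels of different genes were compared per kilobase of main transcript. In 129 the most abundant enzyme was Aldoa, the aldolase that splits fructose bisphosphate, at 376 ± 8.80 CPM per kb (SD, n = 3, as for all such values below). Eno1, an enolase, followed at 244 ± 21.6 CPM per kb, Ldha, a lactate dehydrogenase subunit, at 207 ± 32.1 and Pgk1, phosphoglycerate kinase, at 143 ± 4.96. Ldhb, the other main lactate dehydrogenase subunit, and Gpi1, glucose phosphate isomerase, stood at 114 ± 13.8 and 113 ± 8.07 and did not differ beyond their spread. At the low end were Pfkl, a phosphofructokinase subunit, at 13.1 ± 1.29 CPM per kb and Hk2, a hexokinase, at 12.9 ± 1.86, which also did not differ beyond their spread. Aldoa was highest of the 13 in the mean of each line, at 724 ± 461 CPM per kb in the hybrid and 871 ± 734 CPM per kb in CAST. The order below Aldoa depends on the length used. Per kb of all exons Aldoa stood at 192 ± 4.49 CPM in 129, Pgk1 at 116 ± 4.04, Ldha at 105 ± 16.3, Ldhb at 94.9 ± 11.5, Eno1 at 91.9 ± 8.15 and Gpi1 at 50.6 ± 3.61.

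Pgam1, a phosphoglycerate mutase that moves the phosphate group between carbons of phosphoglycerate, had the largest difference of the 13 enzymes between CAST and each of the other lines. It was at 873, 318 and 309 CPM in CAST 1, CAST 2 and CAST 3, at 67.2, 135 and 80.1 CPM in the hybrid libraries, and at 96.1, 99.3 and 92.8 CPM in the 129 libraries. Every CAST library was above every other library, while the hybrid libraries lay on both sides of those of 129. With the trend on main transcript length taken out, the hybrid stood at 74.6, 92.3 and 73.5 CPM. All 3 were then below 129, at 111.8, 119.9 and 114 CPM. Pgam1 fell by 2.41 ± 0.52 (SE) on the log2 scale in the hybrid against CAST (edgeR adjusted p = 0.0225). The call was lost without hybrid 1 (edgeR adjusted p = 0.0687) and without hybrid 3 (edgeR adjusted p = 0.0866), and with the hybrid and CAST alone in the fit (edgeR adjusted p = 0.106). In CAST against 129 Pgam1 differed by 2.38 ± 0.52 and did not pass (edgeR adjusted p = 0.0741). With the main transcript length trend as an offset, an alternative added after the data were seen, that difference was 1.86 ± 0.28 (edgeR adjusted p = 0.0124). Pgam1 lies on chromosome 19, from 41911923 to 41918660 of GRCm38, and 2 near-identical copies of its transcript lie elsewhere in the annotation without a row in the matrix, so how reads were shared with them is not known.

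Hexokinase, which traps glucose in the cell as glucose phosphate, had a higher level of one listed gene and a lower level of the other in CAST than in 129, and neither difference passed. Hk2, the form that is induced in many tissues, was at 73.5, 80.0 and 59.9 CPM in 129, 46.0, 15.9 and 26.6 CPM in the hybrid and 6.61, 23.1 and 30.5 CPM in CAST. All libraries of 129 were above the rest. The log2 fold change was −1.82 ± 0.58 in CAST against 129 (edgeR adjusted p = 0.198, DESeq2 adjusted p = 0.0322) and −1.27 ± 0.57 in the hybrid against 129 (edgeR adjusted p = 0.226). Hk1, the form typical of brain, was at 268 ± 41.8 CPM in 129, 252 ± 54.9 CPM in the hybrid and 396 ± 94.3 CPM in CAST, a log2 fold change of 0.57 ± 0.37 in CAST against 129 (edgeR adjusted p = 0.472). Its lowest CAST library, at 319 CPM, lay just above the highest library of the other lines, at 316 CPM. Within a library, Hk1 exceeded Hk2 per kb by 4.56, 4.54 and 7.51 times in 129, 6.95, 19.6 and 17.0 times in the hybrid, and 109, 22.8 and 14.98 times in CAST. The CAST ratios were all above those of 129, and hybrid 1 at 6.95 lay within the range of 129. Per kb of all exons the mean ratios were 2.71, 7.09 and 23.8 in 129, the hybrid and CAST.

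No difference between the lines passed for the phosphofructokinase subunits, which carry the committed step of the pathway. Pfkm, named for muscle, was at 102 ± 9.55 CPM in 129, 129 ± 29.8 CPM in the hybrid and 93.7 ± 35.9 CPM in CAST. Pfkp, named for platelets and common in brain, was at 222 ± 67.6, 212 ± 7.21 and 321 ± 121 CPM, and Pfkl, named for liver, at 48.8 ± 4.81, 71.4 ± 27.1 and 59.9 ± 19.2 CPM. The log2 fold changes ran from −0.60 ± 0.41 for Pfkp in the hybrid against CAST to 0.55 ± 0.39 for Pfkl in the hybrid against 129. The ratio of Pfkp to Pfkm per kb was 1.14, 1.48 and 1.88 for 129 and 1.45, 1.12 and 0.966 for the hybrid. The CAST libraries, at 2.22, 2.92 and 2.03, were above all others. Per kb of all exons these ratios lay between 0.347 and 1.05, so which subunit is the more abundant depends on the length used, while the order of the lines does not. Senp1 and a predicted gene overlap exonic bases of Pfkm, 10.2% of them on the same strand and 0.5% antisense.

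As counted, Aldoa, Gpi1, Pgk1, Eno1, Ldha and Ldhb each had their highest level in CAST 1 and the next highest in hybrid 2, and none passed in any comparison. Their main transcripts were 1304 to 2027 bases long but for Gpi1, at 2884 bases. With the trend on main transcript length taken out, the same order held but for Ldha. There hybrid 2, at 453 CPM, lay below 129 3, at 509 CPM. Aldoa was at 545, 560 and 571 CPM in 129, 501, 1834 and 892 CPM in the hybrid and 2550, 739 and 593 CPM in CAST. Hybrid 2 and CAST 1 stood far above their lines, and hybrid 1 was below all of 129. With that trend taken out, Aldoa stood at 1075 CPM in hybrid 2 and 1455 CPM in CAST 1, and Ldhb at 264 and 334 CPM. Gpi1, the enzyme after hexokinase, was at 334, 994 and 527 CPM in the hybrid and 1424, 592 and 428 CPM in CAST, and at 305 to 351 CPM in 129. Its log2 fold change in CAST against 129 was 1.32 ± 0.59, with libraries that did not overlap (edgeR adjusted p = 0.342).

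Pgk1, which makes the first ATP of the pathway, was at 261 ± 9.06 CPM in 129, 495 ± 193 CPM in the hybrid and 443 ± 291 CPM in CAST. The hybrid libraries were all above those of 129, with a log2 fold change of 0.93 ± 0.52 (edgeR adjusted p = 0.309). Ldha was at 347 ± 53.8, 474 ± 216 and 794 ± 618 CPM, and Ldhb at 149 ± 18.01, 279 ± 199 and 304 ± 287 CPM. The log2 fold changes in CAST against 129 were 1.19 ± 0.60 for Ldha and 1.03 ± 0.71 for Ldhb (edgeR adjusted p = 0.385 and 0.493). Ldha has 5 near-identical copies in the annotation, Pgk1 and Eno1 have 4 each, and Gpi1, Aldoa and Ldhb 1 each, so their counts depend on how reads with several matches were treated. The single copy with a row, one of those of Eno1, held 52 counts, or 0.066% of those of Eno1.

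The ratio of Ldhb to Ldha per kb, which tracks the make-up of the enzyme from its 2 subunits at the RNA level, was 0.651, 0.495 and 0.525 in 129. It was 0.595, 0.928 and 0.594 for the hybrid and 0.542, 0.447 and 0.366 for CAST. The hybrid libraries were all above those of CAST, and 129 overlapped both. Per kb of all exons the means were 0.913, 1.16 and 0.740 in 129, the hybrid and CAST, so the order of the lines held and the more abundant subunit in the hybrid did not.

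Eno2, the enolase of mature neurons, had the same order as the summed neuron markers within each line. It was at 178, 260 and 418 CPM in 129, 166, 337 and 421 CPM in the hybrid and 732, 340 and 254 CPM in CAST. The 7 neuron markers summed to 1970, 2932 and 4909 CPM, to 2073, 4122 and 5018 CPM, and to 7129, 3751 and 2676 CPM in the same libraries. Tubb3 and Stmn2 stood at 3230 and 3220 CPM in CAST 1. The markers Map2, Elavl3 and Elavl4 were instead lowest in CAST 1 among the CAST libraries, at 85.4, 144 and 54.6 CPM. In the hybrid they were lowest in hybrid 2, at 74.2, 78.9 and 34.5 CPM. Eno1, the form of most tissues, was at 542, 485 and 456 CPM in 129, 467, 1059 and 613 CPM in the hybrid and 1424, 559 and 480 CPM in CAST. Neither gene passed in any comparison, and the part of cell composition in these values was not tested. In bulk RNA, fewer cells of a type and less RNA per cell cannot be told apart.

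**Figure D3:**
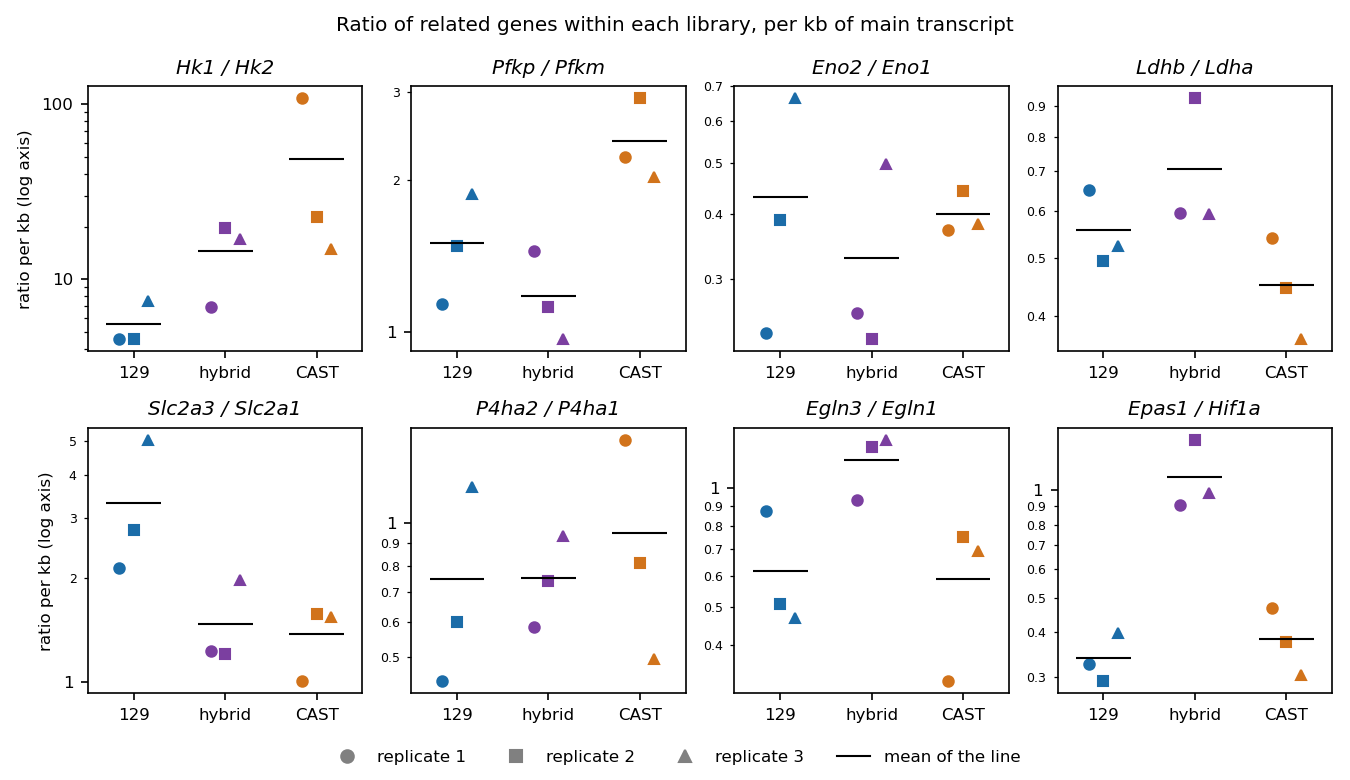
Ratio of the levels of related genes per kb of main transcript (vertical log axes) in each library of 129, the hybrid and CAST, with the mean of each line as a bar. Hk1 to Hk2 reaches 109 in CAST 1 and stays at or under 7.51 in 129, Pfkp to Pfkm is highest in the CAST libraries, and Epas1 to Hif1a is highest in the hybrid libraries.

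Glucose enters through Slc2a1 (GLUT1), common in most cells, and Slc2a3 (GLUT3), the main carrier of neurons. Slc2a3 was at 147, 202 and 356 CPM in 129, 79.4, 44.3 and 106 CPM in the hybrid and 77.8, 114 and 133 CPM in CAST. Both other lines lay below 129 with no overlap, and neither difference passed, at −1.62 ± 0.47 in the hybrid against 129 (edgeR adjusted p = 0.0824, DESeq2 adjusted p = 0.00951) and −1.12 ± 0.47 in CAST against 129 (edgeR adjusted p = 0.317). Slc2a1 was at 58.3 ± 1.75 CPM in 129, 42.5 ± 11.5 CPM in the hybrid and 64.7 ± 5.97 CPM in CAST, and its hybrid libraries, at 30.3 to 53.1 CPM, lay below both parental lines without passing the test. The ratio of Slc2a3 to Slc2a1 per kb was 2.14 to 5.04 in 129, 1.20 to 1.98 in the hybrid and 1.003 to 1.58 in CAST, so as counted 129 did not overlap the others. With the trend on main transcript length taken out, Slc2a3 and Slc2a1 stood at 113.4 and 45.35 CPM in hybrid 3. In 129 1 they stood at 129.6 and 53.39 CPM, so hybrid 3 no longer lay below 129 1 in this ratio. Per kb of all exons the means of the hybrid and CAST were under 1, at 0.864 and 0.809, and that of 129 was 1.95.

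Lactate and pyruvate cross the membrane through Slc16a1 (MCT1) and Slc16a3 (MCT4), the latter an exporter of glycolytic cells. Slc16a1 was at 87.9, 53.0 and 75.6 CPM in 129, 90.6, 17.5 and 58.2 CPM in the hybrid and 27.98, 93.9 and 101 CPM in CAST. The lowest values were those of hybrid 2 and CAST 1, and the lines overlapped. Slc16a3 was scarce, at 2.11, 2.62 and 8.73 CPM in 129, 4.88, 12.6 and 5.24 CPM in the hybrid and 6.81, 2.13 and 1.79 CPM in CAST. Neither passed in any comparison, with log2 fold changes from −0.42 to 1.08.

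The flux regulators did not pass either, and the hybrid lay below 129 for both. Pdk1, a kinase that shuts pyruvate out of the mitochondrial pathway and a known HIF target, was at 29.2, 27.3 and 40.9 CPM in 129, 11.04, 16.2 and 19.6 CPM in the hybrid and 16.7, 35.0 and 32.7 CPM in CAST. Its hybrid libraries lay below all of 129 and overlapped CAST only through CAST 1, with a log2 fold change of −1.06 ± 0.39 against 129 (edgeR adjusted p = 0.16). Against the midparent it was −0.95 ± 0.35 (edgeR adjusted p = 0.172), and without CAST 1 it was −1.10 with an edgeR adjusted p of 0.0363. Pfkfb3, which makes the activator of phosphofructokinase, was at 156, 129 and 136 CPM in 129, 118, 50.2 and 88.9 CPM in the hybrid and 46.9, 132 and 122 CPM in CAST. The log2 fold change in the hybrid against 129 was −0.71 ± 0.46 (edgeR adjusted p = 0.37). The median of Pdk1 and Pfkfb3 in the hybrid against 129, −0.88 as counted, was −0.40 with an offset on exon length and −0.21 with one on main transcript length. With the trend on main transcript length taken out, Pdk1 stood at 9.26, 31.5 and 23.0 CPM in the hybrid and 22.6, 20.8 and 29.8 CPM in 129, so the lines overlapped.

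Hif1a, the alpha subunit that responds to acute low oxygen, showed the greatest difference among the 28 genes, and it was lower in the hybrid than in 129. Its libraries were at 225, 249 and 242.6 CPM in 129, 60.4, 11.5 and 27.3 CPM in the hybrid and 62.0, 151 and 225 CPM in CAST. The hybrid libraries were below all others, though hybrid 1 and CAST 1 were close, and CAST 3 overlapped 129. Hif1a fell by 2.85 ± 0.66 on the log2 scale in the hybrid against 129 (edgeR adjusted p = 0.0316) and fell by 2.495 ± 0.61 against the midparent (edgeR adjusted p = 0.0369). Against CAST the log2 fold change was −2.14 ± 0.64 and did not pass (edgeR adjusted p = 0.101), and in CAST against 129 it was −0.71 ± 0.62 (edgeR adjusted p = 0.57). Hif1a lies on chromosome 12, from 73901375 to 73947530. A same-strand gene overlaps 2.5% of its exonic bases and an antisense gene 5.6%, and the strand setting of the counting is not known.

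The call on Hif1a against 129 rested on each of several libraries. The edgeR adjusted p was 0.0737, 0.096 and 0.0905 without 129 1, 129 2 and 129 3, 0.0722 and 0.118 without hybrid 2 and hybrid 3, and 0.0522 without CAST 2. Against the midparent Hif1a also missed the threshold without CAST 3 and without those 6, with edgeR adjusted p from 0.0631 to 0.139. Against CAST it passed without hybrid 1, at −2.90 (edgeR adjusted p = 0.0454). Hybrid 2 and hybrid 3, with the lowest Hif1a levels, are libraries in which long transcripts were scarce. With the trend on main transcript length as an offset, Hif1a was at −2.44 ± 0.38 against 129 (edgeR adjusted p = 0.00465) and at −1.99 ± 0.37 against CAST (edgeR adjusted p = 0.0108).

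Epas1, a paralogue of Hif1a that also pairs with Arnt, had smaller differences. It was at 85.4, 84.8 and 113 CPM in 129, 64.2, 18.4 and 31.3 CPM in the hybrid and 33.96, 66.3 and 79.9 CPM in CAST. All of 129 lay above the rest, and the log2 fold changes of −1.31 ± 0.50 in the hybrid and −0.65 ± 0.50 in CAST did not pass (edgeR adjusted p = 0.174 and 0.527). With the trend on main transcript length taken out, CAST 1 stood at 70.46 CPM and the 129 libraries at 64.36, 62.83 and 79.75 CPM. CAST and 129 then overlapped, and the hybrid libraries stayed below 129. The ratio of Epas1 to Hif1a per kb was 0.326, 0.292 and 0.399 in 129, 0.469, 0.376 and 0.304 in CAST, and 0.911, 1.38 and 0.981 in the hybrid. Each hybrid library was above every parental library, and it was so per kb of all exons too, where the means were 0.417 in 129, 0.472 in CAST and 1.34 in the hybrid.

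Egln1 (PHD2), the prolyl hydroxylase that sets HIF levels in normal oxygen, was lower in the hybrid than in 129, and as counted its CAST libraries were lower still. It was at 78.4, 69.5 and 66.1 CPM in 129, 35.3, 31.6 and 30.9 CPM in the hybrid and 29.6, 22.6 and 27.95 CPM in CAST. The lines did not overlap as counted, and the spread within each was small. With the trend on main transcript length taken out, CAST 1 stood at 36.5 CPM and the hybrid libraries at 33.3, 41.7 and 32.4 CPM. The hybrid and CAST then overlapped, and both stayed below 129, at 71.6, 64.0 and 58.3 CPM. Egln1 fell by 1.13 ± 0.28 on the log2 scale in the hybrid against 129 (edgeR adjusted p = 0.0424). In CAST against 129 the log2 fold change was −1.42 ± 0.29 and just missed the threshold (edgeR adjusted p = 0.0544, DESeq2 adjusted p = 2.6e-06, limma-voom adjusted p = 0.0405). An offset on exon length led to a call on Egln1 in CAST against 129, and one on main transcript length did not. The hybrid and CAST differed by 0.29 ± 0.28, which did not pass (edgeR adjusted p = 0.745). Egln1 lies on chromosome 8, from 124908587 to 124949324, and no other annotated gene overlaps its exons.

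Leaving out single libraries ended the call on Egln1 in the hybrid against 129 in 8 of 9 cases, with a difference of −1.07 to −1.23 in each. The edgeR adjusted p was 0.134, 0.162 and 0.111 without 129 1, 129 2 and 129 3, 0.0657, 0.0979 and 0.143 without hybrid 1, hybrid 2 and hybrid 3, and 0.0667 and 0.0646 without CAST 2 and CAST 3. Without CAST 1 it was 0.0244. With the offset on main transcript length Egln1 was at −0.85 ± 0.27 (edgeR adjusted p = 0.0954), with that on exon length at −1.24 ± 0.25 (edgeR adjusted p = 0.0159).

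Egln3 (PHD3), a prolyl hydroxylase that is itself a HIF target, was low in CAST. It was at 50.8, 26.2 and 22.9 CPM in 129, 24.4, 29.6 and 30.2 CPM in the hybrid and 7.12, 12.6 and 14.3 CPM in CAST. Every CAST library lay below all others, and 129 and the hybrid overlapped. The log2 fold changes of −1.55 ± 0.41 in CAST against 129 and 1.30 ± 0.41 in the hybrid against CAST did not pass by edgeR (adjusted p = 0.132 and 0.121) and passed by DESeq2 (adjusted p = 0.0106 and 0.0275). The ratio of Egln3 to Egln1 per kb was 0.874, 0.509 and 0.468 for 129 and 0.325, 0.752 and 0.692 for CAST, and the hybrid libraries, at 0.933, 1.27 and 1.32, lay above the rest. With the trend on main transcript length taken out, Egln3 and Egln1 stood at 29.3 and 41.7 CPM in hybrid 2. In 129 1 they stood at 51.8 and 71.6 CPM, so hybrid 2 no longer lay above 129 1 in this ratio.

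**Figure D4:**
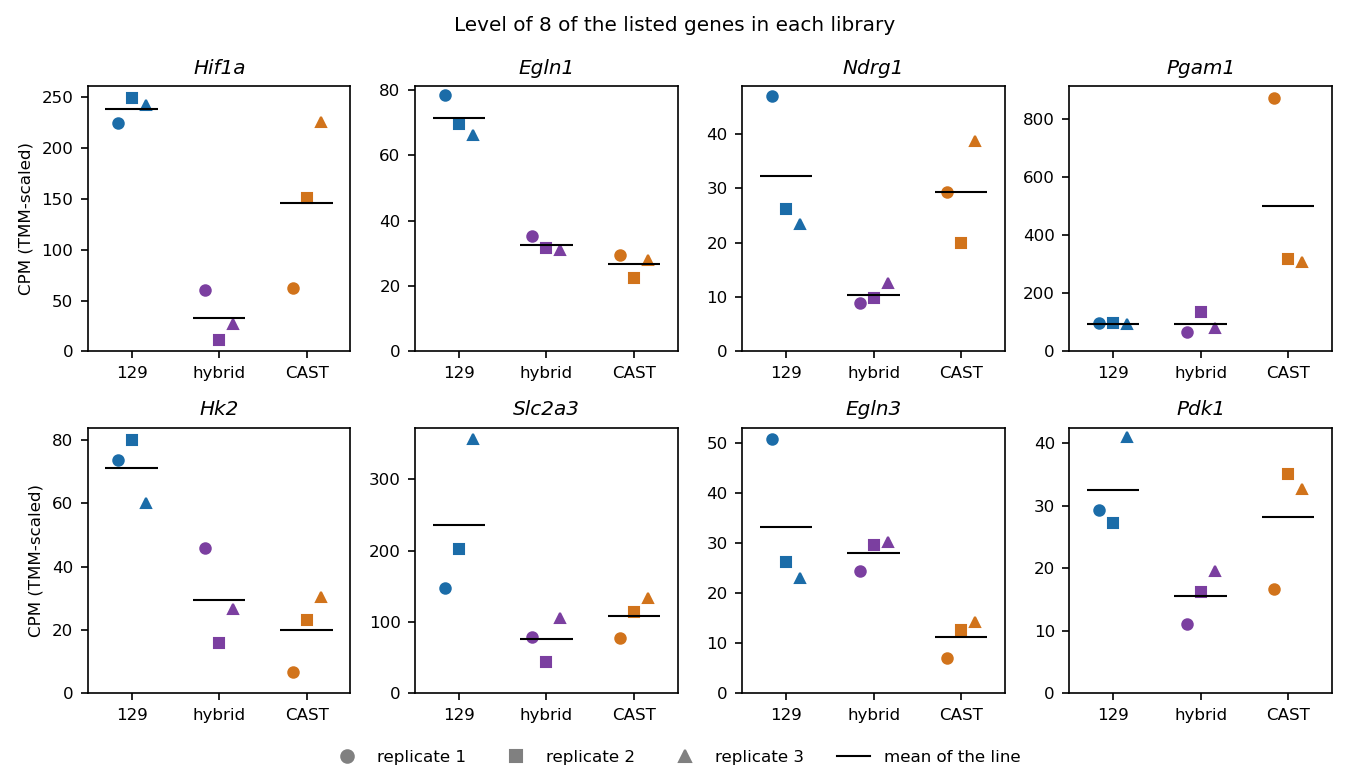
Level in TMM-scaled CPM (vertical axes, from 0) of Hif1a, Egln1, Ndrg1, Pgam1, Hk2, Slc2a3, Egln3 and Pdk1 in each library of the 3 lines, with the mean of each line as a bar. Hif1a, Ndrg1 and Pdk1 have their lowest line mean in the hybrid, Egln1, Egln3 and Hk2 have it in CAST, and Pgam1 is high in all 3 CAST libraries.

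Ndrg1, a stress-responsive gene that HIF raises and that myelinating glia express, was the target that was lower in the hybrid. It was at 46.9, 26.2 and 23.4 CPM in 129, 8.99, 9.78 and 12.5 CPM in the hybrid and 29.3, 19.9 and 38.6 CPM in CAST. The hybrid libraries lay below all others, and the parental lines overlapped. Ndrg1 fell by 1.62 ± 0.40 on the log2 scale against 129 (edgeR adjusted p = 0.0393) and fell by 1.56 ± 0.36 against the midparent (edgeR adjusted p = 0.0286). Against CAST the value was −1.49 ± 0.40 (edgeR adjusted p = 0.0632, DESeq2 adjusted p = 0.0115), and the parental lines differed by −0.14 ± 0.39 (edgeR adjusted p = 0.862). Ndrg1 lies on chromosome 15, from 66929318 to 66969640, with antisense genes over 8.4% of its exonic bases.

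The call on Ndrg1 against 129 was lost when any of the 129 or hybrid libraries was left out. The edgeR adjusted p was 0.137, 0.0941 and 0.0616 without 129 1, 129 2 and 129 3, and 0.0851, 0.12 and 0.0824 without hybrid 1, hybrid 2 and hybrid 3, with differences from −1.26 to −1.82. It was 0.0513 by limma-voom and 0.115 with the offset on exon length. Against the midparent the edgeR adjusted p for Ndrg1 was 0.0502 and 0.0529 without 129 1 and 129 2, 0.0973, 0.118 and 0.0657 without hybrid 1, hybrid 2 and hybrid 3, and 0.0543 without CAST 3. The 6 oligodendrocyte lineage markers summed to 48.6 to 111 CPM in 129, 34.1 to 60.6 CPM in the hybrid and 8.78 to 26.3 CPM in CAST. Among them Mog, a myelin gene, was at 13.1, 5.59 and 22.5 CPM in the hybrid, at 0.556 CPM in 129 1 and at 0 in the other 5 libraries. Mbp, another myelin gene, went the other way, at 35.7, 12.9 and 9.94 CPM in 129 and 3.61, 1.96 and 6.99 CPM in the hybrid. In the hybrid against 129 the log2 fold change was positive for 2 of the 5 tested markers of this list, with a median of −1.08. The 7 astrocyte and radial glia markers summed to 1258 to 3398 CPM in 129, 3252 to 6394 CPM in the hybrid and 3356 to 3804 CPM in CAST, and most of each sum was Vim. Of the 7, 5 had a positive log2 fold change in the hybrid against 129, with a median of 0.93. In the hybrid against CAST it was positive for 3, with a median of −0.49. The part of cell composition in the Ndrg1 difference was not tested.

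Vegfa, the growth factor that draws in vessels, had no difference that passed. It was at 93.5, 80.7 and 41.4 CPM in 129, 96.3, 65.0 and 48.6 CPM in the hybrid and 42.4, 52.6 and 41.6 CPM in CAST. The lines overlapped, with log2 fold changes of −0.66 ± 0.40 in CAST against 129 and −0.04 ± 0.40 in the hybrid against 129 (edgeR adjusted p = 0.448 and 0.957). Averaged over the 9 libraries, Vegfa was the most abundant of the HIF targets per kb of main transcript, and P4ha1 was per kb of all exons. In 129 they did not differ beyond their spread per kb of main transcript, at 45.6 ± 17.2 and 45.03 ± 14.8 CPM per kb.

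P4ha1 and P4ha2 encode the catalytic subunits of collagen prolyl hydroxylase, which collagen-making cells need. P4ha1 was at 211, 222 and 113 CPM in 129, 181, 58.3 and 44.5 CPM in the hybrid and 34.2, 69.6 and 128 CPM in CAST. The 3 highest libraries, 129 1, 129 2 and hybrid 1, are also those with the highest sums of fibroblast and mesenchyme markers, at 18840, 14060 and 19720 CPM, and CAST 1 was lowest in both. The part of these cells in the difference was not tested. P4ha2 was at 52.1, 74.5 and 76.2 CPM in 129, 59.3, 24.2 and 23.3 CPM in the hybrid and 29.3, 31.7 and 35.3 CPM in CAST.

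All CAST libraries lay below those of 129 for P4ha2, with a log2 fold change of −1.07 ± 0.42 (edgeR adjusted p = 0.28), and in the hybrid it was −0.92 ± 0.42 (edgeR adjusted p = 0.228). Without hybrid 1, the hybrid library with the most fibroblast marker reads, the P4ha2 difference between the hybrid and 129 was −1.55 with an edgeR adjusted p of 0.0381. P4ha1 was at −1.24 ± 0.65 and −0.94 ± 0.64 in the same comparisons and did not pass (edgeR adjusted p = 0.395 and 0.387). Ankrd37, a small HIF target, was near the limit of detection with 81 counts in all, 25 of them in hybrid 2, and antisense genes overlap 26.4% of its exonic bases.

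**Figure D5:**
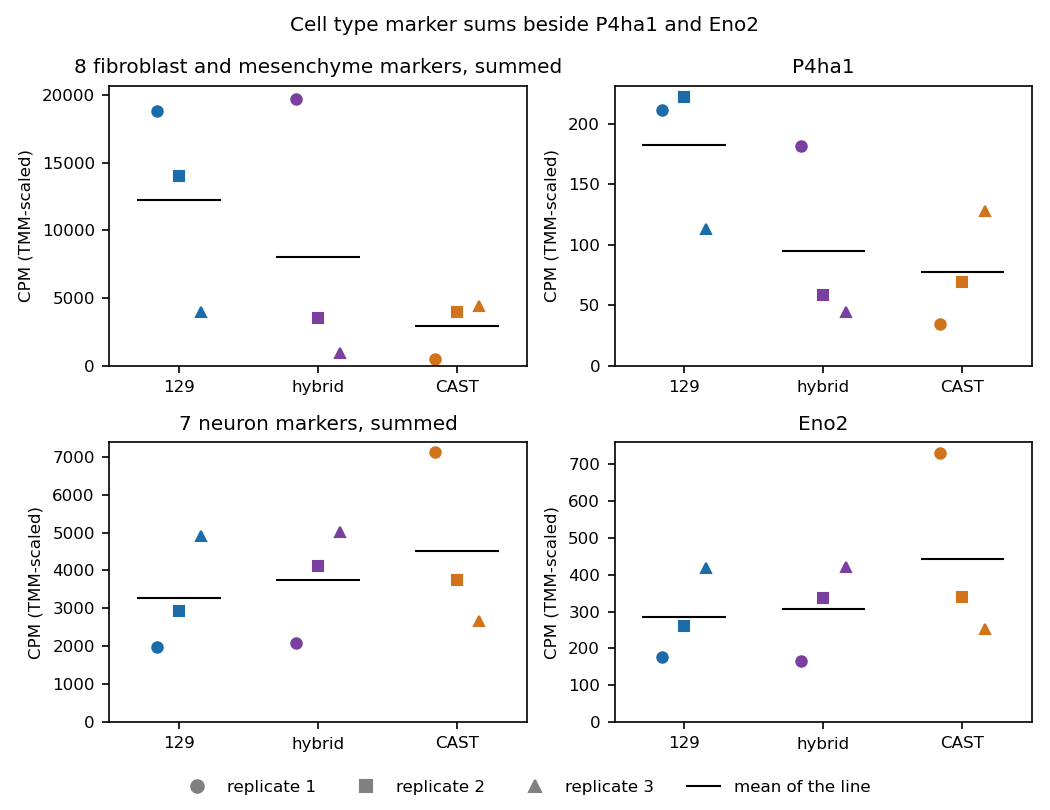
Summed CPM of 8 fibroblast and mesenchyme markers beside P4ha1, and of 7 neuron markers beside Eno2, in each library (vertical axes in TMM-scaled CPM, bars at the mean of each line). P4ha1 is highest in the 3 libraries with the most fibroblast marker reads, and Eno2 has the same order as the neuron marker sum within each line.

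Other genes of the same pathways were counted from fixed lists. Of 38 further genes of glycolysis and pyruvate use, 32 were tested and 0 passed by edgeR in CAST against 129, beside 0.917% of all tested genes, and 5 had an unadjusted p under 0.05, beside 14.6%. In the hybrid against 129, 2 were higher and 1 lower, beside 5.41% and 1.60% of all tested genes. In the hybrid against CAST 3 were higher and 1 lower, beside 4.41% and 1.60%. The median log2 fold changes were 0.06, 0.35 and −0.17 in the 3 comparisons, beside 0.06, 0.02 and −0.08 over all tested genes. Of 39 further HIF pathway genes, 35 were tested and 0 passed in each pairwise comparison by edgeR. An unadjusted p under 0.05 was found for 4, 7 and 7 of them, beside 14.6%, 22.2% and 15.8% of all tested genes. Their median log2 fold changes were −0.13, −0.40 and −0.02 in the 3 comparisons, with 14, 12 and 17 of the 35 positive. In CAST against 129 that median was nearer 0 than the −0.71 of the 9 listed HIF genes. Bhlhe41, a transcriptional repressor raised by HIF, was lower in the hybrid than the midparent, by −1.22 ± 0.31 (edgeR adjusted p = 0.0456), a call that 8 of the 9 single libraries ended when left out, all but CAST 1, with edgeR adjusted p up to 0.363 over all alternatives.

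Mpc1, a subunit of the carrier that takes pyruvate into mitochondria, was lower in the hybrid than in each parental line. It was at 28.9, 24.9 and 35.3 CPM in 129, 3.18, 4.61 and 2.52 CPM in the hybrid and 135, 31.2 and 25.0 CPM in CAST. The hybrid libraries lay far below both parental lines, which overlapped. Mpc1 fell by 3.12 ± 0.67 on the log2 scale against 129 (edgeR adjusted p = 0.0207) and fell by 4.22 ± 0.70 against CAST (edgeR adjusted p = 0.00606). The call against CAST held under all 19 alternatives, with a difference of −3.06 without CAST 1, and that against 129 was lost without 129 1, 129 2, 129 3, hybrid 2 and hybrid 3 in turn (edgeR adjusted p = 0.054, 0.0536, 0.0698, 0.0513 and 0.085). Mpc1 lies on chromosome 17, from 8282904 to 8297661, with an antisense gene over 23.1% of its exonic bases and 2 near-identical copies in the annotation.

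The genes of these lists that were higher in the hybrid fall outside the rule for naming, which asks for a mean of at least 5 CPM, and were chosen after their values were seen. Gapdhs, the glyceraldehyde phosphate dehydrogenase of sperm, was at 4.88, 5.59 and 7.83 CPM in the hybrid, 0.111, 0.061 and 0.0575 CPM in 129 and 0.413, 0.0561 and 0 CPM in CAST. The hybrid libraries lay above all others. Pklr, the pyruvate kinase of liver and red cells, had 36 counts over the hybrid libraries and 0 in both parental lines, at least 17.5-fold higher than 129 and at least 14.0-fold higher than CAST against a floor of 3 counts over a group. Slc16a8, a monocarboxylate transporter of the retinal pigment epithelium, had 38 counts in the hybrid, 5 in 129 and 0 in CAST, at least 14.7-fold higher in the hybrid than in CAST. The difference of Slc16a8 between the hybrid and 129 did not pass (edgeR adjusted p = 0.0774). Against CAST the call on Slc16a8 held under 11 of 19 alternatives, and those on Pklr held under 12 of 18 against 129 and 9 of 17 against CAST. All these genes passed the filter on low counts only through the hybrid, where they are high, so their calls are no support for a difference of the lists. Antisense genes overlap 10.1% of the exonic bases of Gapdhs and 22.0% of those of Pklr.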

How the data were processed

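The authors deposited a matrix of counts, whole numbers of reads per Ensembl gene in 9 libraries, 3 per line. STAR and the assembly mm10, which comes from a strain other than these 3 lines, are named in the submitters' processing notes. No version, counter, counting annotation or strand setting is given in the sources used here. CAST samples 7 and 8 of the labels were not analysed here. All per-sample columns were used, and the number after B in a column name was taken as the replicate number.

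Symbols, coordinates, exon overlaps and lengths come from GENCODE's annotation of GRCm38 (mm10), which may differ from that of the counting, and were matched on gene ID. Per-kilobase values use the median length of the principal transcripts, a choice made after seeing that all exons together include rarely used ones, and values per kilobase of all exons are given beside the ratios and orders that depend on the length. Near-identical copies are other transcripts that blastn matched with at least 95% identity over at least 200 bases.

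Genes were kept by filterByExpr of edgeR 4.0.16 in R 4.3.3 (minimum count 10, minimum total 15, proportion 0.7), then TMM scaling and the robust quasi-likelihood fit were applied to all lines at once without covariates. Tests were two-sided, with Benjamini-Hochberg adjustment over the 14839 tested genes and 0.05 as threshold. Fold changes are log2 values with the SE from the F statistic. CPM values are TMM-scaled. A group at 0 counts was set to a floor of 3 counts over the group, which covers counting error only. Whether the libraries of a line are separate cultures is not stated in the labels, and the p-values therefore reflect only how far these samples spread. The scripts were tested on simulated data.

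The genes, lists, markers and tests were chosen with earlier results of these data known. Every listed gene could be named. Library values were given for each gene that passed and averaged at least 5 CPM, and for the most abundant gene of each role. Other pathway genes were named by the same threshold and mean. Alternatives were DESeq2 size factors, no filter, DESeq2 1.42.0, limma-voom (limma 3.58.1), only the compared lines in the fit, a replicate block, each library left out, CAST 1 and hybrid 2 left out, and a trend on exon length as an offset. Leaving out CAST 1, hybrid 2 and hybrid 3, and an offset on main transcript length, were added after seeing the data.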

Additional observations from a re-analysis of the deposited data

How the results depend on the processing

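Over 2121 recomputed fold changes of the listed genes in the 4 comparisons, 111 changed sign, none of them where the gene had passed the test, 53 lost a call and 30 gained one. In CAST against 129 the count of 0 became 4 by DESeq2 and 1 by limma-voom, beside 6.33% and 1.58% of all tested genes. It was 2 without CAST 1 and hybrid 2, 2 with an offset on exon length and 2 with one on main transcript length. The shares of all tested genes there were 1.52%, 1.87% and 1.94%. Without each single library the count stayed at 0, beside 0.17% to 1.04%. In the hybrid against 129 the count of 3 ran from 0 to 3 without single libraries, beside 3.41% to 11.2% of all tested genes. Without CAST 1, hybrid 2 and hybrid 3, hybrid 1 alone stands for the hybrid and is assumed to vary like the other lines. The Hif1a difference from 129 was −1.97 there. In the hybrid against CAST the count of 1 ran from 0 to 1 without single libraries, beside 4.19% to 6.02% of all tested genes. It became 4 by DESeq2, beside 10.8%, and 0 with only the compared lines in the fit, beside 4.44%. It was 2 without CAST 1 and hybrid 2, 2 with an offset on exon length and 3 with one on main transcript length. The shares of all tested genes there were 6.24%, 6.85% and 7.31%. Against the midparent the count of 2 ran from 0 to 3 without single libraries, beside 5.87% to 12.1% of all tested genes. The cause of these shifts was not tested. With the replicate number as a block the count was 0 in all 4 comparisons, beside 0.0404%, 3.78%, 3.54% and 5.23% of all tested genes. Of 9 pairs of libraries with the same number, 2 had deviations from the line means correlated above 0.1 (range −0.718 to 0.494). Those deviations also carry the length differences between libraries, so they cannot decide whether the number pairs libraries. The labels give the number without a statement of pairing, and the main fit used no block. With 3 libraries a line, each call rested on few libraries, and Car9 and Ankrd37, with 8 and 81 counts over all libraries, had the fewest reads.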
